A study of Homo sapiens with 9 samples.

Results

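The transcription factors ATF6 and CREB3 and their relatives, with the proteases that release them from the membrane, were followed at the RNA level in VCaP cells after knockdown of CDO1. The 10 genes were chosen by name: ATF6, ATF6B, CREB3, CREB3L1, CREB3L2, CREB3L3, CREB3L4, CREBZF, MBTPS1 and MBTPS2, out of 58735 genes in the count table. VCaP is an established prostate cancer cell line, and all cells were kept in medium with 10% fetal bovine serum and 2 nM of the androgen DHT. The cells received either siCtrl, the control siRNA, or siCDO1A or siCDO1C, siRNAs that both target CDO1, the cysteine dioxygenase gene. Each condition had 3 libraries, called biological replicates in the labels, so that 9 libraries of 1 wild-type cell line were available.

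These factors are made as precursors anchored in the membrane of the endoplasmic reticulum (ER). When the ER is stressed, ATF6 travels in COPII vesicles to the Golgi apparatus, where the site-1 protease (MBTPS1) cuts its luminal part and the site-2 protease (MBTPS2) cuts within the membrane. The fragment released into the cytosol is a bZIP transcription factor that enters the nucleus and activates genes of ER chaperones and of ER-associated degradation, and the CREB3 factors are released by the same proteases. RNA levels measure none of these cleavage steps.

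Levels are given as CPM, counts scaled to library size after TMM normalization. The total count per library was between 12061295 and 16073698, at which 3 counts, the limit that a count of 0 allows in a library, correspond to between 0.186 and 0.247 CPM (counting error only). CDO1 itself was reduced by 82.1% ± 4.83 (SD, n = 3) in siCDO1A cells and by 87.9% ± 6.98 (SD, n = 3) in siCDO1C cells (exact permutation test, two-sided, p = 0.1 with either siRNA, the lowest value possible with groups of 3). All 8 markers of luminal prostate cells were at 5 CPM or more in every library, and their summed level was 2710 to 2852 CPM in siCtrl cells, 2898 to 2998 CPM in siCDO1A cells and 2820 to 3039 CPM in siCDO1C cells. Of 8 markers of other cell types, KRT5, TP63, PTPRC, PECAM1 and VIM stayed under 1 CPM in every library. The neuroendocrine markers CHGA and SYP were over 5 CPM throughout, and the fibroblast marker COL1A1 had 1.63 to 4.67 CPM. With siCDO1A, COL1A1 and CHGA were higher by 0.76 and 0.27 on the log2 scale (adjusted p = 0.0353 and 0.0166 by edgeR). With the replicate number as a block the adjusted p was 0.063 and 0.0644. The sum of these 8 genes was 122 to 132 CPM in siCtrl cells, 133 to 157 CPM in siCDO1A cells and 136 to 148 CPM in siCDO1C cells, and its part in the results below was not tested. In a culture measured in bulk, fewer cells that express a gene and less RNA per cell cannot be told apart. The library siCDO1C replicate 2 stood apart from the other siCDO1C libraries, and the values without it are given where they change a call.

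Of the 10 genes, 9 passed the filter on low counts and were tested. Genes with an adjusted p of at most 0.05 in edgeR's quasi-likelihood test were counted as changed. With siCDO1A, 5 of the 9 genes were changed, against 14.8% of all 15555 genes tested. CREBZF was higher (7.37% of all genes were), and CREB3, CREB3L1, CREB3L2 and MBTPS2 were lower (7.48% of all genes) than in siCtrl cells. With siCDO1C, 3 of the 9 were changed, against 4.77% of all genes: CREBZF was higher (2.27% of all genes were), and CREB3L1 and CREB3L2 were lower (2.5%). Of 32 other tested genes annotated as bZIP factors in the count table, 9 (28.1%) were changed with siCDO1A and 6 (18.8%) with siCDO1C. The median log2 fold change of the 9 family genes was -0.21 with siCDO1A and -0.17 with siCDO1C, where the median of all genes was 0.01 and -0.0002. Without siCDO1C replicate 2, 6 of the 9 genes passed with siCDO1C, and the count over all genes rose from 742 to 2068. CREB3, CREB3L1, CREB3L2, MBTPS1, MBTPS2 and CREBZF had siCDO1A libraries that did not overlap with the siCtrl libraries, as 30.6% of all genes had. With siCDO1C this held for 7 of the 9 genes, all but ATF6 and MBTPS2, against 24.2% of all genes. Both comparisons use the same siCtrl libraries.

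In siCtrl cells, the level per kilobase of gene length placed CREB3L4 first with 39.0 ± 2.89 CPM per kilobase (SD, n = 3). CREB3 (29.1 ± 0.807), CREBZF (20.5 ± 1.17), ATF6B (13.9 ± 0.445), MBTPS1 (11.8 ± 0.466) and CREB3L2 (10.8 ± 0.551) followed, in CPM per kilobase (SD, n = 3). MBTPS2 (7.87 ± 0.486) and ATF6 (7.47 ± 0.653) had overlapping libraries and were the only neighbours in this order that did. CREB3L1 was the lowest of the genes detected with 3.32 ± 0.413 CPM per kilobase (SD, n = 3), and CREB3L3, a factor of liver and intestine, had 0 counts in all 9 libraries. Taking the longest annotated transcript as the length, a choice made after seeing the data, kept CREB3L4 and CREB3 at the top (64.8 and 37.0 CPM per kilobase) but placed MBTPS1 next with 27.7 and CREBZF below ATF6B with 16.1, so that the order in the middle depends on the length used.

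**Figure D1:**
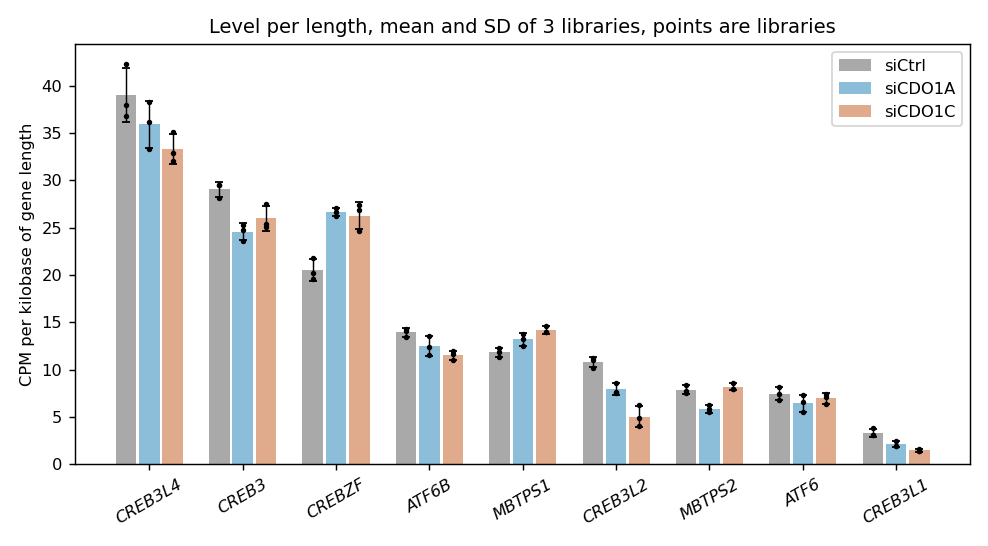
Mean level per kilobase of gene length of the 9 detected genes in siCtrl, siCDO1A and siCDO1C cells; bars are means, error bars SD and points the 3 libraries of a condition. CREB3L4 was highest at 39.0 CPM per kilobase in siCtrl cells and CREB3L1 lowest at 3.32.

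ATF6 (ENSG00000118217, chromosome 1 of GRCh38, 161766294 to 161964070, plus strand), the principal ER stress sensor of the family, had 64.2, 58.7 and 53.9 CPM in the siCtrl libraries, 51.8, 43.3 and 57.7 CPM in the siCDO1A libraries and 56.0, 49.8 and 58.7 CPM in the siCDO1C libraries. The groups overlapped. The log2 fold change under siCDO1A was -0.21 (standard error 0.0921, adjusted p = 0.141 by edgeR), compared to -0.11 with siCDO1C (95% confidence interval -0.31 to 0.09, adjusted p = 0.584 by edgeR). Without siCDO1A replicate 3, the highest of its group, the first of these was -0.31 and passed the threshold (adjusted p = 0.00414 by edgeR). That fit also raised the count over all genes from 2309 to 3454. ATF6 did not pass with siCDO1A in the other 11 alternatives run, and without siCDO1A replicate 2 it was at -0.10 (adjusted p = 0.555). Between siCDO1A and siCtrl libraries of the same replicate number, the log2 difference was -0.31, -0.44 and 0.098.

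ATF6B (ENSG00000213676, chromosome 6, 32115264 to 32128253, minus strand), the paralog of ATF6 with a weaker activation domain, had 48.8, 51.8 and 51.2 CPM in siCtrl cells. Its levels were 49.3, 45.0 and 41.9 CPM in siCDO1A cells and 42.3, 43.3 and 39.9 CPM in siCDO1C cells. All siCDO1C libraries lay below all siCtrl libraries, while siCDO1A replicate 1 lay among the latter. The log2 fold change under siCDO1A was -0.16 (95% confidence interval -0.32 to 0.004, adjusted p = 0.189), compared to -0.28 with siCDO1C (-0.45 to -0.11, adjusted p = 0.062), neither past the threshold. Without siCDO1C replicate 2 the difference with siCDO1C was -0.30 and passed (adjusted p = 0.00833).

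MBTPS1 (ENSG00000140943, chromosome 16, 84053761 to 84116906, minus strand) encodes the site-1 protease, a serine protease of the Golgi lumen. It had 116, 126 and 121 CPM in siCtrl cells, 136, 141 and 128 CPM in siCDO1A cells and 149.9, 143.0 and 143.0 CPM in siCDO1C cells. Every siRNA library lay above every siCtrl library. The log2 fold change under siCDO1A was 0.16 (standard error 0.0603, adjusted p = 0.0878), compared to 0.26 with siCDO1C (standard error 0.0704, adjusted p = 0.0508). Neither passed the threshold, and only the siCDO1C value was just outside it. The siCDO1C value passed in DESeq2 (adjusted p = 0.0365), in 1 fit of all 9 libraries (0.0265), with RLE size factors (0.0478), with at least 10 counts required in every library (0.0468) and without siCDO1C replicate 2 (0.00132), and the siCDO1A value passed without siCDO1A replicate 3 (0.0088).

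MBTPS2 (ENSG00000012174, chromosome X, 21839636 to 21885424, plus strand) encodes the site-2 protease, a metalloprotease that cuts within the membrane. Its levels were 75.1, 68.8 and 66.8 CPM in siCtrl cells, 48.8, 51.6 and 56.1 CPM in siCDO1A cells and 77.0, 71.0 and 71.1 CPM in siCDO1C cells. All siCDO1A libraries lay below all others, and the siCDO1C libraries overlapped with the siCtrl libraries, with replicate 1 above all of them. MBTPS2 fell by 0.43 on the log2 scale under siCDO1A (standard error 0.0745, adjusted p = 0.000537) and was at 0.05 under siCDO1C (95% confidence interval -0.12 to 0.22, adjusted p = 0.804). In the direct comparison MBTPS2 was higher with siCDO1C than with siCDO1A by 0.48 on the log2 scale (standard error 0.0895, adjusted p = 0.018). The difference was 0.34 to 0.66 between siCDO1C and siCDO1A libraries of the same replicate number. It did not pass without siCDO1A replicate 1 (adjusted p = 0.247), siCDO1A replicate 2 (0.183) or siCDO1C replicate 1 (0.176).

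The ratio of the proteases, MBTPS1 to MBTPS2 in CPM per kilobase, was 1.51 ± 0.137 (SD, n = 3) in siCtrl cells, 2.27 ± 0.244 (SD, n = 3) in siCDO1A cells and 1.74 ± 0.0333 (SD, n = 3) in siCDO1C cells. The siCDO1A range of 1.99 to 2.43 and the siCDO1C range of 1.70 to 1.76 both lay above the siCtrl range of 1.35 to 1.59. The gene YY2 lies within MBTPS2 on the same strand and had 91 to 165 counts per library, against 596 to 1126 for MBTPS2. How reads in such overlaps were assigned is not stated.

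**Figure D2:**
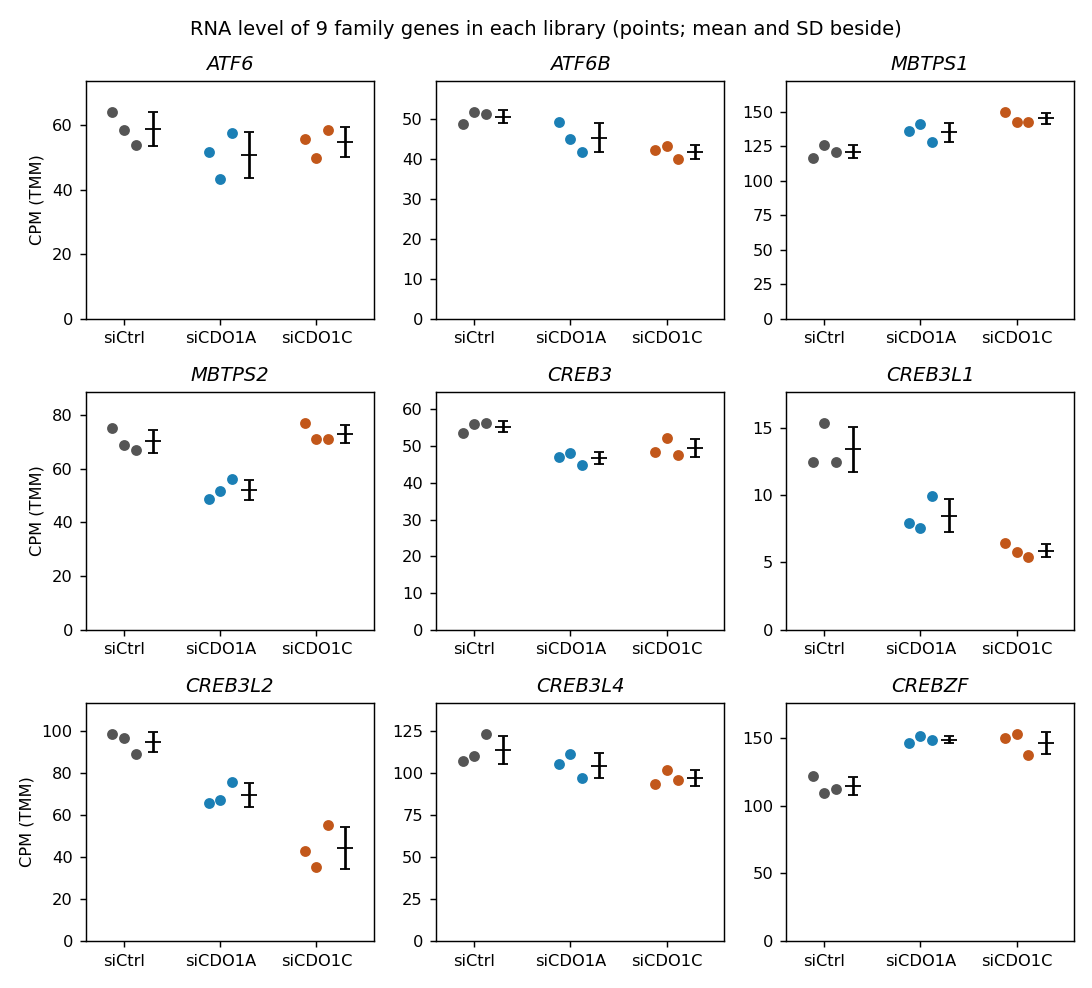
CPM of the 9 tested genes in each library of siCtrl, siCDO1A and siCDO1C cells; points are libraries, and the mean with SD stands beside them. CREB3L1 and CREB3L2 were below every siCtrl library with both siRNAs, CREBZF was above with both, and MBTPS2 was below with siCDO1A.

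CREB3L2 (ENSG00000182158, chromosome 7, 137874979 to 138002067, minus strand), known for activating genes of the secretory route in cartilage, had 98.5, 96.5 and 89.3 CPM in the siCtrl libraries. The siCDO1A libraries had 65.8, 67.0 and 75.9 CPM and the siCDO1C libraries 42.7, 35.1 and 55.0 CPM. The 3 conditions did not overlap, with siCtrl highest and siCDO1C lowest. CREB3L2 fell by 0.44 on the log2 scale with siCDO1A (standard error 0.0702, adjusted p = 0.000185), and under siCDO1C it fell by 1.11 (0.129, adjusted p = 0.000435). Its mean decreased by 26.6% under siCDO1A and decreased by 53.3% under siCDO1C. Between libraries of the same replicate number the log2 difference from siCtrl ran from -0.58 to -0.23 for siCDO1A, and for siCDO1C from -1.46 to -0.70. Without siCDO1C replicate 2, the lowest library, the fall with siCDO1C was by 0.96. CREB3L2 kept its call with both siRNAs in all 12 alternatives run.

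CREB3L2 was also lower with siCDO1C than with siCDO1A, by a log2 fold change of -0.66 (standard error 0.131, adjusted p = 0.0393). The call was lost without siCDO1A replicate 1 (adjusted p = 0.137), siCDO1A replicate 2 (0.183), siCDO1A replicate 3 (0.276) or siCDO1C replicate 1 (0.229). The siCDO1C libraries varied most among themselves, with a coefficient of variation of 22.7%, against 5.11% in siCtrl and 7.93% in siCDO1A cells.

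The 250 bases before the starts of CREB3L2 and CREBZF are printed because these genes were changed with both siRNAs, in opposite directions, and each has a start in RefSeq (GRCh38.p14) that lies 19 or 45 bases from the gene start of the count table. RefSeq also gives each a further start, 69079 bases away for CREB3L2 (1 CpG dinucleotide in the same window) and 19307 bases away for CREBZF (9), and these are not printed. The RefSeq start of CREB3L1 lies 17498 bases away and is not printed either. CpG dinucleotides, the sites of DNA methylation, are in capitals. CREB3L2 has 15 of them (chr7:138002087-138002336, minus strand) and CREBZF has 14 (chr11:85682864-85683113, minus strand), where the median of 35116 promoters was 11 and 57.1% and 55.2% of promoters had fewer.
CREB3L2: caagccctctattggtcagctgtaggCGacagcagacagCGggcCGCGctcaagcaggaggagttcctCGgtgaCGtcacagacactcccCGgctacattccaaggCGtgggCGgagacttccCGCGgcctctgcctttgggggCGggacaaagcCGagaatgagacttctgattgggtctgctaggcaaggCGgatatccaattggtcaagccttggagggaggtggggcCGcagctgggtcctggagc
CREBZF: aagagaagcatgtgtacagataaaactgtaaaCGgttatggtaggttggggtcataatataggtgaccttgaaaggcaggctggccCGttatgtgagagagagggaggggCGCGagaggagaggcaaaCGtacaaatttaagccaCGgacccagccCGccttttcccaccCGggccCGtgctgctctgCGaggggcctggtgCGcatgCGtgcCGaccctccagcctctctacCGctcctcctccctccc
Methylation was not measured here.

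CREB3L1 (ENSG00000157613, chromosome 11, 46277661 to 46321422, plus strand), a factor known for activating collagen genes in bone, had 12.5, 15.3 and 12.5 CPM in siCtrl cells. Its levels were 7.94, 7.58 and 9.90 CPM in siCDO1A cells and 6.43, 5.77 and 5.44 CPM in siCDO1C cells. Again the 3 conditions did not overlap, in the order seen for CREB3L2. CREB3L1 fell by 0.65 on the log2 scale with siCDO1A (standard error 0.137, adjusted p = 0.00265), and under siCDO1C it fell by 1.19 (0.146, adjusted p = 0.000284). Its mean decreased by 36.8% under siCDO1A and decreased by 56.2% under siCDO1C. Between the siRNAs, the log2 fold change of -0.53 (95% confidence interval -0.88 to -0.18) was not past the threshold (adjusted p = 0.284). The falls rested on 66 to 201 counts per library and kept their call in all 12 alternatives run for each siRNA.

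CREB3 (ENSG00000107175, chromosome 9, 35732335 to 35737004, plus strand), which gave the family its name, had 53.5, 56.1 and 56.2 CPM in siCtrl cells, 47.1, 48.2 and 44.9 CPM in siCDO1A cells and 48.4, 52.3 and 47.7 CPM in siCDO1C cells. The siRNA libraries were all lower than the siCtrl libraries. CREB3 fell by 0.24 on the log2 scale with siCDO1A (standard error 0.072, adjusted p = 0.0258). With the replicate number as a block the adjusted p was 0.101, in 1 fit of all 9 libraries it was 0.061, and leaving out any library but siCDO1A replicate 3 took it to between 0.0516 and 0.101. With siCDO1C the log2 fold change was -0.17 (95% confidence interval -0.34 to 0.002, adjusted p = 0.277). CREB3 overlaps TLN1 and GBA2 on the opposite strand, which had means of 3332 and 1388 counts against 693 for CREB3. The strand setting of the counting is not given in the sources used here.

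CREB3L4 (ENSG00000143578, chromosome 1, 153967534 to 153974363, plus strand), known as an androgen-induced factor of the prostate, had 107, 110.2 and 123 CPM in siCtrl cells, 105, 111 and 96.7 CPM in siCDO1A cells and 93.1, 102 and 95.5 CPM in siCDO1C cells. The siCDO1C libraries lay below the siCtrl libraries and the siCDO1A libraries overlapped with them. The log2 fold change under siCDO1A was -0.12 (95% confidence interval -0.26 to 0.02, adjusted p = 0.259), compared to -0.24 with siCDO1C (-0.40 to -0.07, adjusted p = 0.102). Without siCDO1C replicate 2 the latter was -0.27 and passed (adjusted p = 0.00446). CREB3L4 overlaps JTB on the opposite strand, which had a mean of 221 counts against 1443 for CREB3L4.

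CREBZF (ENSG00000137504, chromosome 11, 85659708 to 85682908, minus strand), a bZIP protein without a membrane anchor that binds CREB3 and the cofactor HCFC1, had 122, 109 and 113 CPM in siCtrl cells. It had 147, 151 and 149 CPM in siCDO1A cells and 149.9, 153 and 138 CPM in siCDO1C cells, each above every siCtrl library. CREBZF rose by 0.38 on the log2 scale with siCDO1A (standard error 0.0593, adjusted p = 0.000162), and under siCDO1C it rose by 0.35 (0.0753, adjusted p = 0.0142), 1.30-fold and 1.27-fold. Between libraries of the same replicate number the log2 difference from siCtrl was 0.27 to 0.47 with siCDO1A and 0.29 to 0.49 with siCDO1C. With siCDO1C the call was lost without siCtrl replicate 2 (adjusted p = 0.129), siCtrl replicate 3 (0.0943) or siCDO1C replicate 1 (0.0649). Its share of the summed level of the 10 genes per kilobase was 14.3% under siCtrl, 19.7% under siCDO1A and 19.8% under siCDO1C, while that of CREB3L2 was 7.5%, 5.85% and 3.79%. These shares depend on the length used. In siCtrl cells CREBZF was at 20.5 CPM per deposited kilobase and 16.1 with the longest transcript, where CREB3L4 was at 39.0 and 64.8.

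In the direct comparison of the siRNAs, 2 of the 9 genes differed, against 0.444% of all genes, namely CREB3L2 (lower with siCDO1C, as were 0.199% of all genes) and MBTPS2 (higher with siCDO1C, as were 0.244%). Both calls were lost without siCDO1A replicate 1, siCDO1A replicate 2 or siCDO1C replicate 1, and over all genes the count of 69 lay between 18 and 447 when single libraries were left out (447 without siCDO1C replicate 2). With the replicate number as a block it was 121. Of the 32 other tested bZIP genes, 1 (3.12%) differed between the siRNAs in edgeR. The groups did not overlap for CREB3L1, CREB3L2, MBTPS1 and MBTPS2, against 12.7% of all genes. For CREBZF the log2 difference between the siRNAs was -0.03 (95% confidence interval -0.19 to 0.14) and for ATF6 0.10 (-0.12 to 0.33). For CREB3 it was 0.08 (-0.11 to 0.27) and for MBTPS1 0.10 (-0.07 to 0.27). Such intervals are not limits of detection. CREB3L1, at -0.53, was not called although its whole interval, -0.88 to -0.18, was negative (adjusted p = 0.284 by edgeR).

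**Figure D3:**
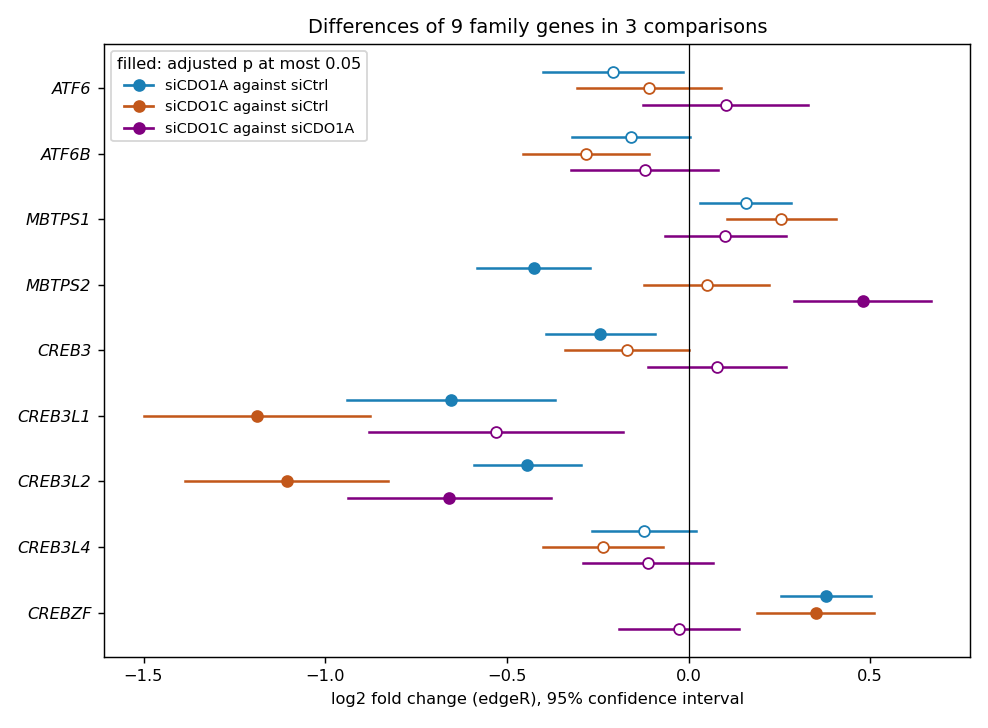
Log2 fold changes of the 9 tested genes with 95% confidence intervals in the 3 comparisons; filled points have an adjusted p of at most 0.05. CREB3L1 and CREB3L2 lie farthest to the left, with -1.19 and -1.11 for siCDO1C against siCtrl, and MBTPS2 is at -0.43 for siCDO1A and 0.05 for siCDO1C against siCtrl.

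Genes that ATF6 is known to activate formed a list of 19, all tested. With siCDO1A, 9 of them fell and 0 rose, against 7.48% of all genes lower, and 5 passed with the replicate number as a block, without CANX, DNAJB11, EDEM1 and XBP1. With siCDO1C, 13 fell and 0 rose, against 2.5% of all genes lower, and 8 passed without siCtrl replicate 1. The median log2 fold change of the list was -0.16 with siCDO1A and -0.46 with siCDO1C. At the same time ATF6 was at -0.21 and -0.11, not past the threshold with either siRNA.

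HSPA5, the ER chaperone BiP, had 1580, 1592 and 1607 CPM in siCtrl cells, 1393, 1367 and 1315 CPM in siCDO1A cells and 1006, 1205 and 1062 CPM in siCDO1C cells. The 3 conditions did not overlap, and siCDO1C replicate 2 was the library of its group nearest to the others. HSPA5 fell by 0.23 on the log2 scale with siCDO1A (standard error 0.0457, adjusted p = 0.00173), and under siCDO1C it fell by 0.55 (0.0752, adjusted p = 0.000664). Without siCDO1C replicate 2 the latter fall was by 0.63.

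HERPUD1, a membrane protein of ER-associated degradation, had 132, 129 and 133 CPM in siCtrl cells, 93.0, 91.7 and 93.6 CPM in siCDO1A cells and 68.5, 78.1 and 78.7 CPM in siCDO1C cells. HERPUD1 fell by 0.50 with siCDO1A (standard error 0.0578, adjusted p = 5.0e-06), and under siCDO1C it fell by 0.81 (0.0769, adjusted p = 2.0e-05), on the log2 scale. Of the list, it had the largest fall with siCDO1C.

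PDIA6, a protein disulfide isomerase, had 332, 350.3 and 345 CPM in siCtrl cells, 252, 264 and 245 CPM in siCDO1A cells and 241, 251 and 249 CPM in siCDO1C cells. DNAJC3, a co-chaperone of BiP, had 57.2, 57.3 and 56.1 CPM in siCtrl cells, 37.0, 39.1 and 41.5 CPM in siCDO1A cells and 39.3, 39.0 and 39.9 CPM in siCDO1C cells. Their falls were of like size with both siRNAs, by 0.43 and 0.48 on the log2 scale for PDIA6 and by 0.53 and 0.54 for DNAJC3 (adjusted p of 0.00105 or less in edgeR). In the direct comparison the log2 difference was -0.04 (95% confidence interval -0.20 to 0.12) for PDIA6 and 0.001 (-0.19 to 0.20) for DNAJC3.

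Of the other targets, MANF, HSP90B1, CRELD2 and PDIA4 fell with siCDO1C and did not pass with siCDO1A. Between the siRNAs, 0 of the 19 genes differed in edgeR, although 12 had an unadjusted p under 0.05, as had 1190 of all 15555 genes. The count of targets that differed was 4 in DESeq2 and 4 with the replicate number as a block, and 11 without siCDO1C replicate 2. HSPA5, at -0.32 for siCDO1C against siCDO1A (adjusted p = 0.143), passed with the block (adjusted p = 0.0396) and in DESeq2 (0.0391). The others that passed with the block were MANF (adjusted p = 0.0938 without and 0.00672 with it), HSP90B1 (0.0998 and 0.0156) and CRELD2 (0.103 and 0.0245).

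**Figure D4:**
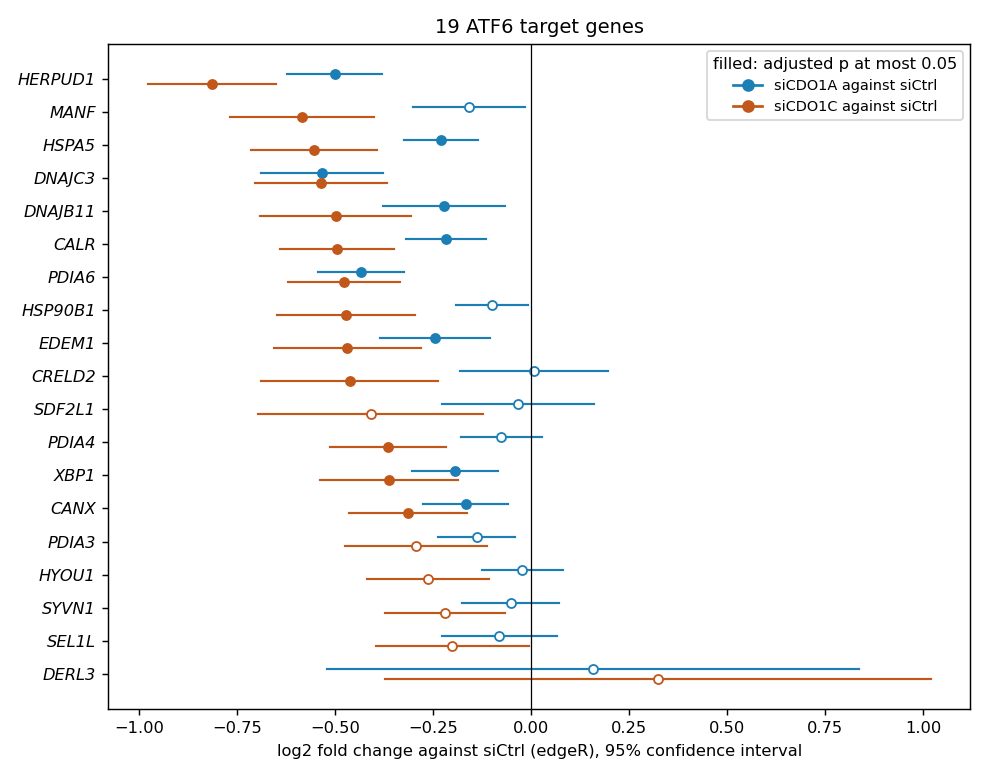
Log2 fold changes of the 19 ATF6 target genes against siCtrl with 95% confidence intervals; filled points have an adjusted p of at most 0.05. With siCDO1C 13 genes are filled and all of these lie to the left of 0, from CANX at -0.31 to HERPUD1 at -0.81.

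Among 12 tested partners and regulators of these factors, such as the subunits of NF-Y, HCFC1, CREBRF and WFS1, 1 fell with siCDO1A (7.48% of all genes were lower). With siCDO1C 0 passed in edgeR (4.77% of all genes changed) and 0 in DESeq2. There 4 of the 12 had an unadjusted p under 0.05 in edgeR, as had 2890 of all 15555 genes. The gene that fell was NFYB, an NF-Y subunit, at 73.7, 73.7 and 69.6 CPM in siCtrl cells, 62.8, 59.8 and 59.8 CPM in siCDO1A cells and 65.9, 76.9 and 70.0 CPM in siCDO1C cells. Its log2 fold change under siCDO1A was -0.25 (standard error 0.0665, adjusted p = 0.0142; 0.0692 with the replicate number as a block), compared to -0.03 with siCDO1C (adjusted p = 0.875). The call with siCDO1A was also lost without siCtrl replicate 1, siCtrl replicate 2 or siCDO1A replicate 2, and without siCDO1A replicate 3 the list had 3 changed genes. With siCDO1C it had 3 without siCDO1C replicate 2.

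COPII coats carry ATF6 and its relatives from the ER to the Golgi apparatus. Of 16 tested COPII genes, 3 rose and 4 fell with siCDO1A, and 2 rose and 1 fell with siCDO1C (6 passed without siCDO1C replicate 2). For siCDO1A, 7.37% of all genes passed as higher and 7.48% as lower, and for siCDO1C 2.27% and 2.5%. SAR1B, a GTPase that starts coat assembly, had 36.0, 31.5 and 32.2 CPM in siCtrl cells, 62.0, 59.4 and 65.4 CPM in siCDO1A cells and 69.1, 77.3 and 69.1 CPM in siCDO1C cells, and rose by 0.91 (adjusted p = 1.2e-07) and 1.10 (adjusted p = 3.9e-06) on the log2 scale. The cargo adaptors moved in different directions. SEC24A had 47.2, 42.4 and 40.3 CPM in siCtrl cells, 57.6, 59.5 and 69.1 CPM in siCDO1A cells and 59.7, 57.2 and 63.7 CPM in siCDO1C cells. It rose by 0.52 (adjusted p = 0.000218) and 0.47 (adjusted p = 0.00603). SEC24D, in turn, had 72.2, 77.1 and 75.5 CPM in siCtrl cells, 52.0, 49.1 and 53.8 CPM in siCDO1A cells and 48.8, 44.8 and 52.0 CPM in siCDO1C cells, and fell by 0.54 (adjusted p = 1.8e-05) and 0.63 (adjusted p = 0.000468).

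SEC23A, a coat subunit that CREB3L2 is known to activate in cartilage, had 94.4, 91.0 and 96.9 CPM in siCtrl cells, 70.4, 60.4 and 77.2 CPM in siCDO1A cells and 82.2, 80.4 and 73.9 CPM in siCDO1C cells. All siRNA libraries lay below the siCtrl libraries. SEC23A fell by 0.44 on the log2 scale with siCDO1A (standard error 0.0768, adjusted p = 0.000511), while siCDO1C gave a log2 fold change of -0.26 (adjusted p = 0.0611; 0.00542 without siCDO1C replicate 2). With siCDO1C the call of SEC24A was lost without siCtrl replicate 2 (adjusted p = 0.055) or siCtrl replicate 3 (0.0605). Between the siRNAs 0 COPII genes differed in edgeR or in DESeq2, with 1 at an unadjusted p under 0.05, as were 1190 of all 15555 genes.

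The site proteases also release the SREBP factors of sterol synthesis, and MBTPS1 belongs to the family of proprotein convertases. Of 13 tested genes of this route and family, SREBF1 rose and INSIG1, INSIG2 and FURIN fell with siCDO1A, and SREBF1 rose and INSIG1 fell with siCDO1C. These are 4 and 2 of the 13 genes, against 14.8% and 4.77% of all genes. SREBF1, which encodes an SREBP, had 206, 206 and 226 CPM in siCtrl cells, 309, 309 and 277 CPM in siCDO1A cells and 266, 271 and 254 CPM in siCDO1C cells. Its log2 fold change was 0.49 (adjusted p = 8.3e-06) and 0.30 (adjusted p = 0.0228).

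INSIG1, which holds the SREBP carrier in the ER, had 452, 443 and 432 CPM in siCtrl cells, 320, 309 and 286 CPM in siCDO1A cells and 311, 378 and 345 CPM in siCDO1C cells, with log2 fold changes of -0.54 (adjusted p = 6.3e-07) and -0.37 (adjusted p = 0.0123). INSIG2 had 63.1, 68.5 and 60.8 CPM in siCtrl cells, 39.1, 46.7 and 40.4 CPM in siCDO1A cells and 54.5, 59.2 and 49.2 CPM in siCDO1C cells. It was at -0.60 with siCDO1A (adjusted p = 2.9e-05), compared to -0.25 with siCDO1C (adjusted p = 0.138; 0.00662 without siCDO1C replicate 2). FURIN, a convertase of the trans-Golgi network, was at -0.28 with siCDO1A (adjusted p = 0.00295), compared to -0.12 with siCDO1C (adjusted p = 0.43). The siCDO1C calls of SREBF1 and INSIG1 were both lost when any of the siCtrl libraries or siCDO1C replicate 1 was left out, and without siCDO1C replicate 2 the list had 4 changed genes. Between the siRNAs 0 of the 13 genes differed in edgeR or in DESeq2, with 4 at an unadjusted p under 0.05, as were 1190 of all 15555 genes.

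The list of other CREB and ATF factors held 11 genes without a membrane anchor, 1 of which, DDIT3, is not itself a CREB or ATF factor. Of the 11, ATF2 rose and ATF3, ATF4, ATF5, CREB1 and CREBL2 fell with siCDO1A. These are 6 of 11, against 14.8% of all genes. With the replicate number as a block 1 of the 6 passed, CREBL2, and the count over all genes went from 2309 to 1358. With siCDO1C, ATF2 rose and DDIT3, ATF4 and ATF3 fell, 4 of 11 against 4.77% of all genes. DDIT3, the factor CHOP of the ER stress response, had 20.0, 23.8 and 22.8 CPM in siCtrl cells, 20.1, 21.2 and 17.0 CPM in siCDO1A cells and 10.3, 15.1 and 11.1 CPM in siCDO1C cells. Its siCDO1C libraries lay below all others, and its log2 fold change under siCDO1A was -0.19 (adjusted p = 0.24), compared to -0.88 with siCDO1C (standard error 0.14, adjusted p = 0.00203).

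ATF4, the effector of the integrated stress response, had 379, 407 and 429 CPM in siCtrl cells, 363, 362 and 346 CPM in siCDO1A cells and 289, 347 and 304 CPM in siCDO1C cells. Its log2 fold change under siCDO1A was -0.18 (adjusted p = 0.0275; 0.122 with the block), compared to -0.38 with siCDO1C (adjusted p = 0.0136). ATF2 had 45.2, 41.3 and 38.8 CPM in siCtrl cells, 50.7, 46.7 and 55.6 CPM in siCDO1A cells and 57.0, 59.5 and 60.0 CPM in siCDO1C cells. It was at 0.29 with siCDO1A (adjusted p = 0.0221; 0.0669 with the block), compared to 0.49 with siCDO1C (adjusted p = 0.00369). CREBL2 was at -0.32 with siCDO1A (adjusted p = 0.00375), compared to -0.16 with siCDO1C (adjusted p = 0.298). The siCDO1A count of 6 was 1 without siCDO1A replicate 1 and 2 without siCtrl replicate 2, siCtrl replicate 3 or siCDO1A replicate 2, and the siCDO1C count of 4 was 2 without siCtrl replicate 3. The ATF4 call with siCDO1C was lost without siCtrl replicate 2, siCtrl replicate 3 or siCDO1C replicate 1.

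Among 11332 genes with a mean of at least 5 CPM, the genes most like each changed member over the 9 libraries were found by the root mean square difference of their log2 CPM, centred on the mean of each gene. LIPH, AJUBA and SLC7A11 were nearest to CREB3L1 (differences of 0.177 to 0.21, where the spread of CREB3L1 itself was 0.505), and ADM2, CCDC113 and MOB1A were nearest to CREB3L2 (0.146 to 0.174 of 0.49). Nearest to MBTPS2 were LIMS1, BMPR1A and MFN1 (0.0728 to 0.0734 of 0.228). OXA1L, SHISA5 and AKAP8 were nearest to CREBZF (0.0457 to 0.0575 of 0.183) and SARAF, RTN4 and MCM9 to CREB3 (0.0288 to 0.0367 of 0.111). These are descriptions of 9 shared libraries, in which any genes that differ between the conditions in the same way come to lie close together.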

How the data were processed

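RNA of VCaP cells was measured in 9 libraries, 3 per condition. Per the paper and the labels, poly(A) RNA was made into strand-specific libraries, and the submitters' processing notes name CASAVA, HISAT2 2.0.5 and hg38. The authors counted reads per gene with featureCounts and deposited raw counts, used here as deposited, with a gene length in bases (another deposited value) that was used for levels per kilobase. The table has 3 count columns that match no sample here and were used in no step.

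The filter filterByExpr of edgeR 4.0.16, run on all 9 libraries with its minimum count of 10, retained 15555 of 58735 genes. Each of the 3 comparisons used its 6 libraries, with TMM normalization, the robust quasi-likelihood test (R 4.3.3) and Benjamini-Hochberg adjustment over all genes tested. Each was also run on simulated counts with the same spread for every gene and no library that stands apart. Those runs therefore do not cover a library such as siCDO1C replicate 2. Intervals are at 95%. DESeq2 1.42.0 was run as an alternative, with other normalizations, filters, a block and leaving out single libraries.

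The family genes and the 5 further lists, written from general knowledge, were chosen with earlier results of these data known. From each list, up to 4 genes with the lowest adjusted p against siCtrl were named, for each changed family gene the 3 most alike, and CDO1 as the check. Genes beyond this rule, such as MANF, and those whose list calls are named in full, were chosen after their values were seen. Promoters came from the RefSeq table of GRCh38.p14, and CpG dinucleotides were counted in the 250 bases before each start.

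In the labels, batch and replicate numbers coincide, so the numbers pair libraries by label. The correlation of deviations from the group means over 11332 genes was, for siCtrl with siCDO1A, siCtrl with siCDO1C and siCDO1A with siCDO1C, -0.196, 0.0502 and -0.131 for number 1, -0.0871, -0.00946 and 0.123 for number 2 and -0.367, -0.27 and 0.369 for number 3. The methods of the study describe no block, and the replicate number as a block was an alternative.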

Additional observations from a re-analysis of the deposited data

Results flagged for a closer look

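Differences between the siRNAs passed the test for 3 genes among the family genes and the 5 lists. CREB3L2 was lower with siCDO1C than with siCDO1A by a log2 fold change of -0.66, and MBTPS2 was higher by 0.48. DDIT3 was lower by -0.68 on the log2 scale (standard error 0.148, adjusted p = 0.0496 by edgeR). The DDIT3 difference was past the threshold by little, and its adjusted p was 0.0526 with RLE size factors, 0.0595 with at least 10 counts in every library and between 0.12 and 0.396 when any library other than siCDO1C replicate 2 was left out.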

How the results depend on the processing

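CREB3L1 and CREB3L2 with both siRNAs, and CREBZF and MBTPS2 with siCDO1A, kept direction and call in all 12 alternatives run for each comparison. Counts of changed genes moved more. In 1 fit of all 9 libraries, siCDO1A changed 1369 genes, 5 ATF6 targets and 2 other CREB and ATF factors, and 128 genes and 5 ATF6 targets differed between the siRNAs. The fit with a replicate block gave, for siCDO1A, 1358 genes, 5 ATF6 targets, 0 partners and 1 other CREB and ATF factor, and 121 genes and 4 targets differed between the siRNAs. Among the family genes and those named by rule from the lists, the block changed the calls of CREB3, NFYB, ATF2 and ATF4 with siCDO1A and of HSPA5 between the siRNAs, and no other call. Between the siRNAs, DESeq2 gave 104 genes and 4 ATF6 targets, and no filter on low counts gave 153 and 4, with 1 partner changed by siCDO1C. DDIT3, the single gene of the list of other CREB and ATF factors that differed between the siRNAs, was lost (0) with RLE size factors. It was also lost with at least 10 counts in every library, where DNAJC3 was at -0.000153. The cause was not tested.

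Leaving out single libraries, siCDO1A changed 4 to 7 family genes, from 1292 to 3454 genes, 6 to 10 ATF6 targets and 0 to 3 partners. The same fits gave 4 to 6 genes of the SREBP route, 5 to 8 COPII genes and 1 to 5 other CREB and ATF factors. The 7 family genes and 3454 genes were those without siCDO1A replicate 3, and 4 family genes passed without any other single library. With siCDO1C these fits gave 2 to 6 family genes, 263 to 2068 genes, 8 to 17 ATF6 targets, 0 to 3 partners, 0 to 4 genes of the SREBP route, 2 to 6 COPII genes and 2 to 4 other factors. Between the siRNAs they gave 0 to 2 family genes, 18 to 447 genes, 0 to 11 ATF6 targets and 0 to 2 other factors. Log2 values near 0 changed sign: NFYB with siCDO1C (-0.0934 to 0.0241) and, between the siRNAs, ATF6 (-0.00227 to 0.218), CREBZF (-0.0546 to 0.0178), DNAJC3 (-0.0369 to 0.0593) and SEC24A (-0.0994 to 0.0501). RefSeq transcript lengths were not run because the table used holds gene spans, and transcript lengths of GENCODE v44 stood in. ATF6B and CREB3L4 with siCDO1C passed the threshold in the fit without siCDO1C replicate 2 and in none of the other 11 alternatives run.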
